A study of Homo sapiens with 6 samples.

Results

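The HOX genes are the 39 protein-coding genes whose symbols join HOX, a cluster letter from A to D and a number, and all 39 had a row among the 60616 gene identifiers measured. Membership went by symbol alone, while the family and the gene lists below were chosen with earlier results of these data known. There were 11 genes in the HOXA cluster (chromosome 7), 10 in HOXB (chr17:48528526-48729178, GRCh38), 9 in HOXC (chr12:53938765-54056030) and 9 in HOXD (chr2:176092891-176190907). RNA was sequenced from 12Z cells, an immortalized human line described as epithelial-like and derived from endometriotic tissue, which is endometrium-like tissue growing outside the uterus. The frankincense group holds 3 libraries from cells given frankincense extract at 70 ug/mL in DMSO for 12 h, and the vehicle group holds 3 libraries from cells given DMSO. Both groups grew in DMEM/F12 medium with 10% charcoal-stripped serum, which lowers the level of steroid hormones. One cell line was used, and separate cultures are not stated for the libraries of a group, which means that p-values reflect only how these libraries vary, possibly for technical reasons.

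HOX genes encode transcription factors that bind DNA through a shared domain, the homeodomain, whose coding sequence is the homeobox. Within each cluster the genes stand in a row, and their order follows the body axis: low-numbered genes act toward the head and high-numbered genes toward the tail, so that the set of HOX genes a cell expresses records its origin along that axis. Genes with the same number in different clusters are paralogues, copies of one ancestral gene. In the female reproductive tract the HOXA genes from HOXA9 to HOXA13 pattern the Müllerian duct from oviduct to vagina in mice, and HOXA10 and HOXA11 are known for their part in endometrial receptivity.

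Promoter sequence was at hand for 20 of the 39 genes, in 26 distinct windows of 300 bases from RefSeq (GRCh38.p14), 1 of them listed for both HOXC4 and HOXC5, each running from 250 bases before to 50 bases after a transcription start. The 4 shown are the promoters of HOXA2 and HOXA6, the genes with the lowest fold changes, of HOXA11, a HOXA gene whose change did not pass the test, and of HOXD8, which rose. Capitals mark the CCAAT box, written CCAAT on the sense strand and ATTGG where it lies on the other strand.
HOXA2 promoter (GRCh38.p14, chr7:27102634-27102933, - strand): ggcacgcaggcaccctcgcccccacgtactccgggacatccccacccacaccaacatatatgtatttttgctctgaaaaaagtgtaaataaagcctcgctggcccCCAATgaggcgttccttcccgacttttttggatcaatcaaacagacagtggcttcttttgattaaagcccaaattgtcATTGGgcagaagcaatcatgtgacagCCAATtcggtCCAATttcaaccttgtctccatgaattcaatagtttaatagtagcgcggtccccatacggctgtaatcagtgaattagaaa
HOXA6 promoter (GRCh38.p14, chr7:27147725-27148024, - strand): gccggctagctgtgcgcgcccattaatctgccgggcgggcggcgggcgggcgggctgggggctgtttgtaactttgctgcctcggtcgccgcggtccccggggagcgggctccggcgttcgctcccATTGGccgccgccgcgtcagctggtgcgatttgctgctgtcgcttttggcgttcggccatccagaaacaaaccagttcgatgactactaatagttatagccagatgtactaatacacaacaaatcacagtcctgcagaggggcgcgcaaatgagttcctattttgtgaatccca
HOXA11 promoter (GRCh38.p14, chr7:27185183-27185482, - strand): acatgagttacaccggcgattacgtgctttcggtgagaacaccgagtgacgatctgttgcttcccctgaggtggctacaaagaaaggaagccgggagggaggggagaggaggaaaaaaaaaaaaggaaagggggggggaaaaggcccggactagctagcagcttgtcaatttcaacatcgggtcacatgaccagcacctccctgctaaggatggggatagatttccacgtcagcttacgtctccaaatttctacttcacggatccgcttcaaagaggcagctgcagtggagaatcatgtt
HOXD8 promoter (GRCh38.p14, chr2:176129455-176129754, + strand): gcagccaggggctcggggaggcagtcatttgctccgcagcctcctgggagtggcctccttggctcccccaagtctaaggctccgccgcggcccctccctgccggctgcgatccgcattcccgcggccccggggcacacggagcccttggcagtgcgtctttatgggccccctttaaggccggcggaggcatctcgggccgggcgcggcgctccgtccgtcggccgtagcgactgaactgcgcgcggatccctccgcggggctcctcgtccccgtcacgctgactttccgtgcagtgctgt

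The CCAAT box occurred 4 times in the HOXA2 promoter and 1 time in that of HOXA6, and had no match in the HOXA11 and HOXD8 windows. Searched on both strands, CCAAT was found in 17 of the 26 HOX windows (65.4%), which belong to 17 of 20 genes, and in 34.7% of all 34943 distinct promoter windows of the same length. Among the genes with a promoter window that fell, 11 had the box and 1 did not, and among those that rose 1 had it and 1 did not. The other 6 genes with a window comprised 3 with a tested change that was not called, of which 2 had the box, and 3 that were not tested, all with the box. A gene counted as having the box if any of its windows did. HOXA3 and HOXA10, which fell, had more than 1 window each, so the chance of a match was unequal. Most windows of HOXA3 lacked the box. A link between the box and the change was not tested. The GC box GGGCGG was found in 13 HOX windows (50%) and in 44.9% of all promoters, and the TATA box TATAAA in 5 windows (19.2%) and in 11.6% of all. The sequence AGGTCA, one form of the core motif bound by nuclear receptors such as the retinoic acid receptors, was found in 0 of the 26 windows and in 13.8% of all promoters. TGATNNAT, a composite site for HOX and PBX proteins in which N is any base, was in 3 windows (11.5%) and in 7.42% of all promoters, and TGACAG, bound by MEIS proteins, was in 4 (15.4%) and in 15.8%. TTTATGG, one form of a site for posterior HOX and CDX proteins, was in 1 window, that of HOXD8 (3.85%), and in 2.55% of all promoters. Such matches describe letters within the window, and their binding was not measured.

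The 6 libraries held 22615150 to 27615196 expected counts each. A count of 3 in 1 library, taken as the limit that a count of 0 allows, corresponded to 0.109 to 0.133 CPM (counts scaled to library depth), and such floors cover counting error only. TPM (transcript abundance per length, with an equal sum in every library) was used to set genes beside each other, and changes were tested on counts. Frankincense replicate 3 stood apart from the other frankincense libraries, with a chi-square per degree of freedom between gene counts of 12.13 and 13.98 to each of them, against 4.14 between those 2. The cells' markers were mixed: 6 of 7 epithelial markers and 7 of 7 stromal or mesenchymal markers reached 1 TPM in vehicle libraries, while CDH1, the epithelial cadherin, averaged 0.133 TPM there. Of 6 Müllerian and endometrial markers, 2 reached 1 TPM in vehicle libraries, EMX2 was at 0 in all 6 libraries, and the receptors ESR1 and PGR averaged 0.117 and 0.157 TPM. Of 3 mesothelial markers, 1 reached 1 TPM in vehicle libraries. The mesothelial sum was 30.6 to 36.9 TPM in frankincense and 28.1 to 31.0 TPM in vehicle libraries. Endothelial markers summed to 0.03 to 0.25 TPM in frankincense and 0.10 to 0.27 TPM in vehicle libraries. Immune markers summed to 0.35 to 0.67 TPM in frankincense and 2.09 to 3.02 TPM in vehicle libraries. Among these the T-cell gene CD3E was at 0 in all 6 libraries, and CD14, a gene of monocytes and macrophages, averaged 0.413 ± 0.172 TPM in frankincense libraries and 2.53 ± 0.512 TPM in vehicle libraries (SD, n = 3 each) and was 7.76-fold lower (log2 fold change -2.96 ± 0.28 SE, edgeR adjusted p = 3.9e-07). Summed levels moved with the treatment: epithelial markers came to 1378 to 1431 TPM in frankincense and 1604 to 1640 TPM in vehicle libraries, and stromal markers to 3214 to 3514 TPM against 4139 to 4253 TPM in vehicle. Members did not all go with these sums: EPCAM and KRT7 of the epithelial list were 1.64-fold and 1.92-fold higher (edgeR adjusted p of 0.0098 and 0.00049), and CDH2 of the stromal list was 1.21-fold higher (log2 fold change 0.28 ± 0.09 SE, edgeR adjusted p = 0.018). Genes encoded by the mitochondrion took 16.3% to 17.9% of TPM in frankincense libraries and 26.6% to 27.1% in vehicle libraries. The part of these shifts in the HOX results was not tested beyond the scalings given here. On the log2(TPM + 1) scale the median of all genes moved by 0.20 toward frankincense, whereas on the count scale used for the tests it moved by less than 0.01, so a gene with equal TPM in both groups lay slightly below the middle of all genes.

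Vehicle-treated 12Z cells expressed a broad HOX code that was fullest in the HOXA cluster and in the HOXB genes 2 to 7. Of the 39 genes, 31 averaged at least 1 TPM in vehicle libraries and 19 at least 10 TPM, 2 lay between 0.1 and 1 TPM, and 6 were under 0.1 TPM. All 11 HOXA genes and 8 of 10 HOXB genes reached 1 TPM, as did 6 of 9 HOXC and 6 of 9 HOXD genes. The median gene of the cluster averaged 21.6 TPM in HOXA, 20.8 TPM in HOXB, 6.97 TPM in HOXC and 6.47 TPM in HOXD. Summed over genes, HOXA gave 45.8% of all HOX TPM in vehicle libraries, HOXB 36.5%, HOXC 9.82% and HOXD 7.90%.

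**Figure D1:**
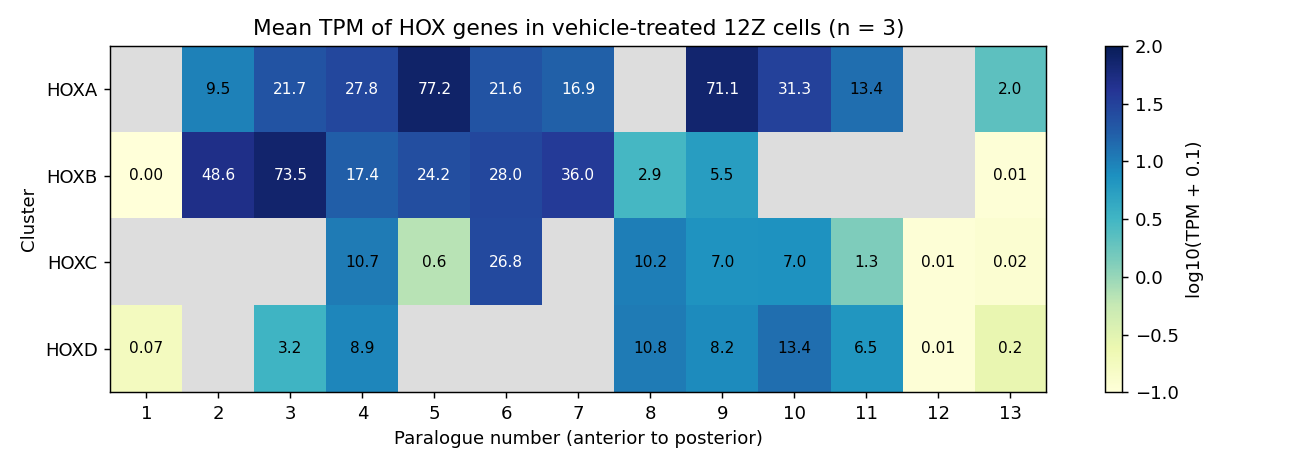
Mean TPM of each HOX gene in the 3 vehicle libraries, with clusters in rows and paralogue numbers from 1 to 13 in columns; colour gives log10(TPM + 0.1), the printed numbers give TPM, and grey marks positions with no gene or not shown. The darkest cells are HOXA5, HOXB3 and HOXA9, and the genes numbered 12 and 13 are near 0 except HOXA13.

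The order of levels was led by HOXA5 at 77.2 TPM, HOXB3 at 73.5 TPM and HOXA9 at 71.1 TPM. HOXB3 overlapped both others in its vehicle libraries, and every HOXA5 value lay above every HOXA9 value. HOXB2 at 48.6 TPM stood below these 3 and above HOXB7 at 36.0 TPM in every vehicle library, and HOXB7 stood above the next gene, HOXA10, at 31.3 TPM. HOXA10, HOXB6 (28.0 TPM), HOXA4 (27.8 TPM) and HOXC6 (26.8 TPM) overlapped each with its neighbour in the order. HOXC6, known from mammary and thoracic development, was the only HOXC gene above 11 TPM. HOXD10, a gene of limb and motor neuron patterning, led the HOXD cluster at 13.4 TPM and overlapped HOXA11 at 13.4 TPM.

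Some genes of the anterior end, and most of those numbered 12 or 13, were weak in these cells. HOXB1, a hindbrain gene, had 0 counts in all 6 libraries, and HOXD1 averaged 0.0733 TPM in vehicle. At the posterior end HOXC12 and HOXD12 had 1 count each in all 6 libraries together, both in vehicle replicate 3. HOXB13, a prostate and hindgut gene, summed to 4 counts over frankincense libraries and 1 over vehicle libraries. HOXC13, a gene of hair and nail formation, summed to 4 counts over frankincense libraries and 3 over vehicle libraries. HOXD13, a digit gene, averaged 0.163 TPM in vehicle. HOXA13, which acts in the lower reproductive tract and in digits, was the exception among the genes numbered 12 or 13, at 2.05 TPM. HOXD1 was too low for the test but had 21 counts over the frankincense libraries and 8 over the vehicle libraries, and its values of 0.22, 0.30 and 0.18 TPM in frankincense lay above those of 0.06, 0.05 and 0.11 TPM in vehicle. Grouped by position, genes 1 to 3 summed to 160.7 ± 4.45 TPM in vehicle libraries, genes 4 to 8 to 320.1 ± 6.10 TPM and genes 9 to 13 to 166.9 ± 1.47 TPM (SD, n = 3). Spearman's rho between level and paralogue number was 0.03 in HOXA (11 genes), -0.31 in HOXB (10), -0.68 in HOXC (9) and -0.13 in HOXD (9). These coefficients describe genes of the same libraries, which are not independent replicates.

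Frankincense treatment was followed by lower levels of most expressed HOX genes, above all in HOXA. Changes were tested with edgeR's quasi-likelihood test on all 16719 genes with enough counts, calling a gene at an adjusted p under 0.05, and 33 HOX genes entered the test. Of these 33, 24 fell, 3 rose (HOXB9, HOXD4 and HOXD8) and 6 did not pass the test. The treatment moved much of the transcriptome: 62.9% of all genes tested were called, 31.9% higher and 31.0% lower, so the 81.8% of HOX genes called stands against that background and the 72.7% that fell against 31.0%. At least 2-fold lower and called were 12 of the 33 (36.4%), against 7.11% of all genes, and at least 2-fold higher was 1, HOXB9, against 5.14%. The family was chosen with earlier results of these data known, so such shares describe it and test nothing. The median log2 fold change was -0.61 over the HOX genes tested and -0.0016 over all genes, and the median size of the change in either direction was 0.77 over the HOX genes and 0.37 over all genes. TPM of the groups did not overlap for 23 of the 33 tested genes, against 65.2% of all genes tested. On the log2(TPM + 1) scale, where 74.2% of all calls were higher against 50.7% on counts, 16 HOX genes fell and 5 rose (limma). Without frankincense replicate 3, 21 fell and 4 rose. None of the 27 called changes turned its sign under any alternative run. In such bulk RNA a change in the number of cells that express a gene and a change in RNA per cell cannot be told apart.

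Cluster by cluster, 10 of 11 HOXA genes fell and 1 did not pass the test, with a median log2 fold change of -1.53. In HOXB 5 of the 8 tested genes fell, 1 rose and 2 did not pass, with a median of -0.48. In HOXC 6 of 7 fell and 1 did not pass, none by 2-fold, with a median of -0.29. In TPM the groups overlapped for HOXC4, HOXC5, HOXC6 and HOXC8, and their calls and that of HOXC10 were lost on the TPM scale. In HOXD 3 of 7 fell, 2 rose and 2 did not pass, with a median of -0.03. The calls of HOXA13, HOXB7 and HOXD9 were also lost on the TPM scale. The share that fell was 90.9% in HOXA, 62.5% in HOXB, 85.7% in HOXC and 42.9% in HOXD, against 31.0% of all genes. The share that rose was 12.5% in HOXB and 28.6% in HOXD, against 31.9% of all genes. Whether the clusters differ from each other was not tested, since genes of a cluster share the same libraries.

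**Figure D2:**
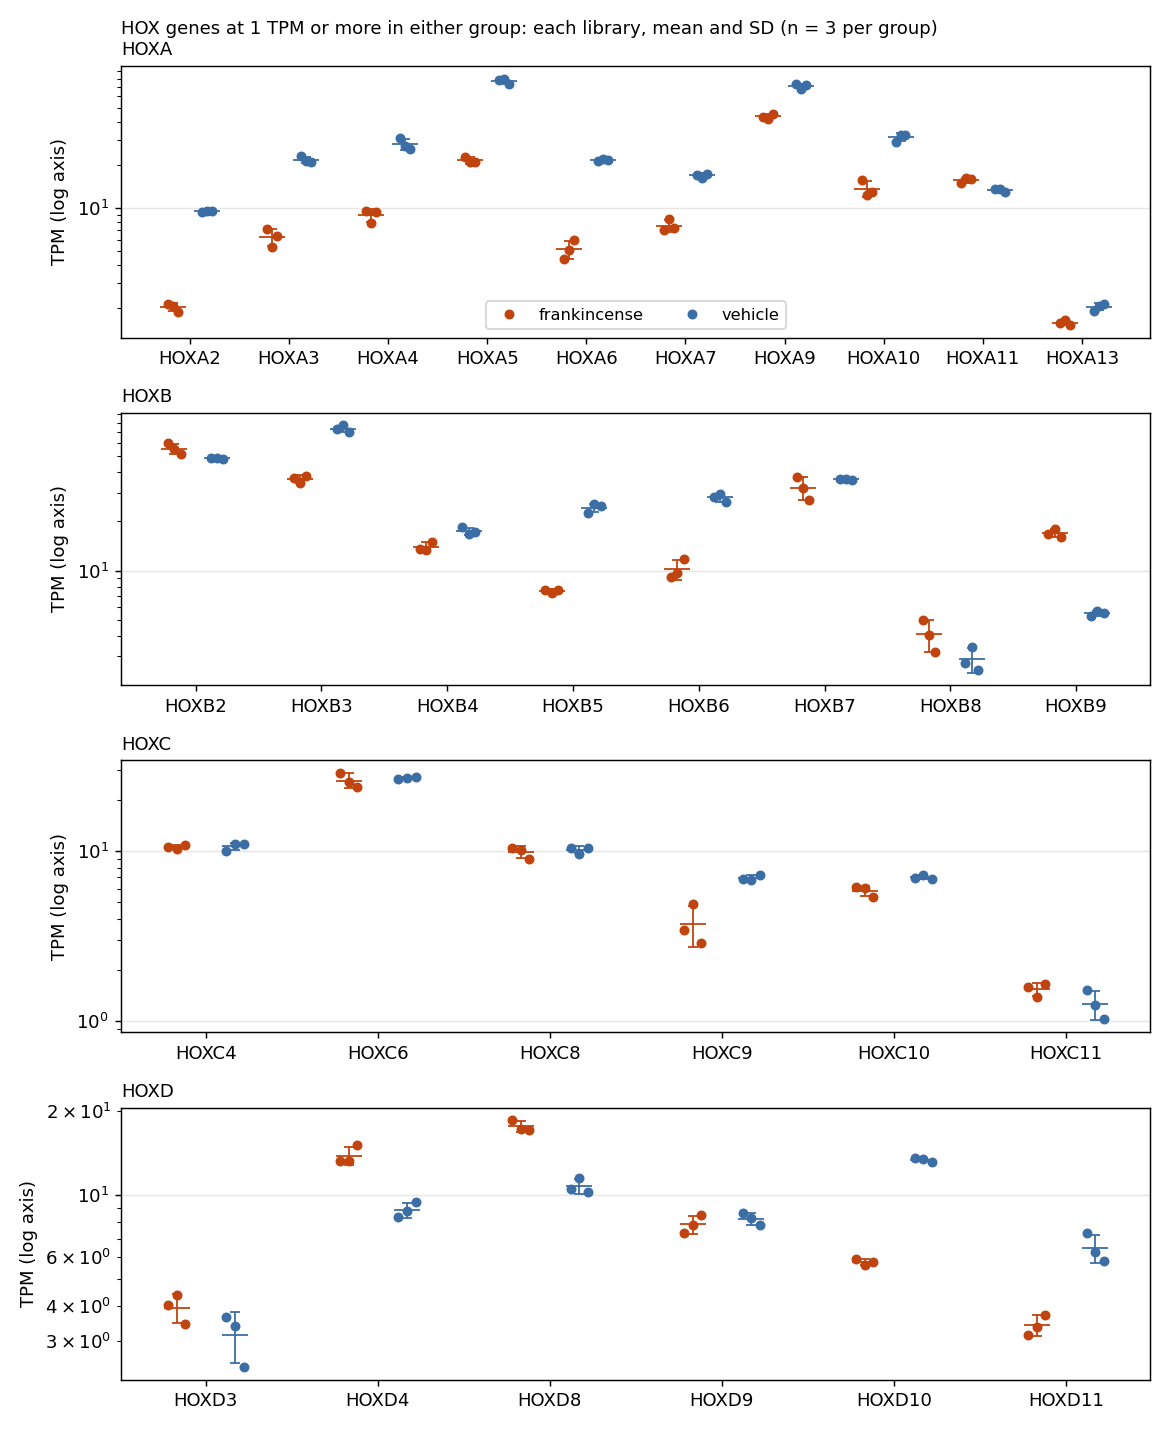
TPM (log axis) of the HOX genes at 1 TPM or more in either group, one panel per cluster, 1 gene not shown; points are libraries, bars mean ± SD, frankincense left of vehicle in each pair. HOXA2 to HOXA10 and HOXA13 lie lower in all 3 frankincense libraries, HOXB9, HOXD4 and HOXD8 lie higher, as do HOXA11 and HOXB2 in TPM alone, and HOXB7, HOXB8, HOXC4, HOXC6, HOXC8, HOXC11, HOXD3 and HOXD9 overlap.

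Among the anterior HOXA genes, HOXA2, a gene of hindbrain and middle ear patterning in mice, had the lowest fold change of the family. It had 2.14, 2.06 and 1.89 TPM in the frankincense libraries, against 9.43, 9.53 and 9.53 TPM in the vehicle libraries. Every frankincense library lay far below every vehicle library, and the gene was 5.51-fold lower (log2 fold change -2.46 ± 0.12 SE, edgeR adjusted p = 3e-10). HOXA3, needed for the thymus and parathyroid in mice, had 7.09, 5.34 and 6.42 TPM in the frankincense libraries, against 22.9, 21.4 and 20.9 TPM in the vehicle libraries. The groups were well apart and HOXA3 was 4.12-fold lower (log2 fold change -2.04 ± 0.10 SE, edgeR adjusted p = 4.4e-10).

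The central HOXA genes 4 to 7 fell together, their summed TPM reaching 43.1 ± 0.795 in frankincense and 143.6 ± 5.08 in vehicle libraries (SD, n = 3 each). HOXA5, which is needed for lung development in mice, had 22.7, 20.9 and 20.9 TPM in the frankincense libraries, against 78.5, 79.8 and 73.3 TPM in the vehicle libraries. It was the top HOX gene of vehicle cells and was 4.02-fold lower with frankincense (log2 fold change -2.01 ± 0.08 SE, edgeR adjusted p = 3.1e-11). HOXA4 had 9.49, 7.87 and 9.41 TPM in the frankincense libraries, against 30.7, 27.2 and 25.6 TPM in the vehicle libraries. Its groups did not overlap, and it was 3.64-fold lower (log2 fold change -1.87 ± 0.09 SE, edgeR adjusted p = 4.4e-10). HOXA6 had 4.43, 5.08 and 5.95 TPM in the frankincense libraries, against 21.4, 21.9 and 21.5 TPM in the vehicle libraries. Its vehicle libraries were tightly grouped, all far above the frankincense ones, and it was 4.98-fold lower (log2 fold change -2.32 ± 0.10 SE, edgeR adjusted p = 1.7e-10). HOXA7 had 7.01, 8.36 and 7.23 TPM in the frankincense libraries, against 17.03, 16.3 and 17.4 TPM in the vehicle libraries. Its groups were also separate, with a smaller change than in its neighbours HOXA5 and HOXA6, 2.61-fold lower (log2 fold change -1.38 ± 0.08 SE, edgeR adjusted p = 4.2e-09).

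The posterior HOXA genes, those of the Müllerian duct, did not move as one. HOXA9, an oviduct gene in mice that also drives leukaemias when overexpressed, had 43.4, 41.9 and 45.4 TPM in the frankincense libraries, against 72.9, 68.2 and 72.1 TPM in the vehicle libraries. It was 1.97-fold lower (log2 fold change -0.98 ± 0.06 SE, edgeR adjusted p = 4.2e-09), and it was the highest HOXA gene in frankincense libraries, where in vehicle libraries HOXA5 was. HOXA10, a regulator of uterine identity and endometrial receptivity, had 15.7, 12.4 and 12.9 TPM in the frankincense libraries, against 29.04, 32.4 and 32.5 TPM in the vehicle libraries. The groups were apart, and HOXA10 was 2.89-fold lower (log2 fold change -1.53 ± 0.10 SE, edgeR adjusted p = 1.6e-07). Its effective length, the mean transcript length weighted by isoform abundance, was 1718 ± 44.2 bases in frankincense and 1842 ± 70.2 bases in vehicle libraries (SD, n = 3 each). HOXA11, needed for uterine stroma and implantation in mice, had 14.9, 16.1 and 15.9 TPM in the frankincense libraries, against 13.6, 13.5 and 12.99 TPM in the vehicle libraries. Its frankincense libraries were all slightly higher in TPM, yet on the count scale the change did not pass the test (log2 fold change -0.05 ± 0.07 SE, edgeR adjusted p = 0.55), and its sign turned with library size or TPM scaling. The ratio of HOXA11 to HOXA10 TPM was 0.949, 1.295 and 1.23 in frankincense libraries, against 0.468, 0.418 and 0.400 in vehicle libraries, with no overlap. This ratio restates the values of both genes above and adds no separate evidence. Like the ratios given below, it was chosen after the values were seen. HOXA13 had 1.58, 1.64 and 1.52 TPM in the frankincense libraries, against 1.92, 2.07 and 2.15 TPM in the vehicle libraries. It was 1.53-fold lower (log2 fold change -0.61 ± 0.11 SE, edgeR adjusted p = 0.0002), a call lost on the TPM scale (limma, adjusted p = 0.104).

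In HOXB, 4 of the 5 central genes, numbered 4 to 8, fell, and the posterior gene HOXB9 rose. HOXB9, a gene of the thoracic skeleton and mammary gland in mice, had 16.9, 17.9 and 16.04 TPM in the frankincense libraries, against 5.28, 5.67 and 5.48 TPM in the vehicle libraries. All frankincense libraries were above all vehicle libraries, and HOXB9 was 2.61-fold higher (log2 fold change 1.39 ± 0.09 SE, edgeR adjusted p = 4.8e-09), the only HOX gene to rise by 2-fold. HOXB8, its neighbour, had 4.97, 4.07 and 3.19 TPM in the frankincense libraries, against 2.72, 3.42 and 2.48 TPM in the vehicle libraries. The groups overlapped and the change did not pass the test (log2 fold change 0.32 ± 0.19 SE, edgeR adjusted p = 0.16), though without frankincense replicate 3 it did, with an adjusted p of 0.0187.

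HOXB3, the second highest HOX gene of vehicle cells and a regulator of blood progenitors, had 36.9, 34.1 and 37.8 TPM in the frankincense libraries, against 72.8, 77.1 and 70.4 TPM in the vehicle libraries. Levels in frankincense were near one another and well below vehicle, 2.43-fold lower (log2 fold change -1.28 ± 0.05 SE, edgeR adjusted p = 1e-10). HOXB5, which acts in enteric neural crest and vessels, had 7.60, 7.28 and 7.62 TPM in the frankincense libraries, against 22.7, 25.4 and 24.7 TPM in the vehicle libraries. It changed most among the HOXB genes, 3.83-fold lower (log2 fold change -1.94 ± 0.08 SE, edgeR adjusted p = 4.9e-11). HOXB6 had 9.14, 9.68 and 11.7 TPM in the frankincense libraries, against 28.2, 29.5 and 26.4 TPM in the vehicle libraries. It was 3.16-fold lower, with groups apart (log2 fold change -1.66 ± 0.07 SE, edgeR adjusted p = 1e-10).

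HOXB4, known for expanding blood stem cells, had 13.6, 13.3 and 15 TPM in the frankincense libraries, against 18.4, 16.8 and 17.2 TPM in the vehicle libraries. Its change was smaller, 1.48-fold lower (log2 fold change -0.57 ± 0.07 SE, edgeR adjusted p = 4e-06), with no overlap. HOXB7 had 37.1, 32.1 and 26.99 TPM in the frankincense libraries, against 36.3, 36.2 and 35.7 TPM in the vehicle libraries. The frankincense libraries spread widely around the vehicle level, and its call as lower (log2 fold change -0.40 ± 0.13 SE, edgeR adjusted p = 0.023) was lost without frankincense replicate 2, without vehicle replicate 2 and on the TPM scale, with adjusted p of 0.0744, 0.0609 and 0.217. HOXB2 had 59.8, 54.98 and 51.9 TPM in the frankincense libraries, against 48.8, 48.9 and 48.2 TPM in the vehicle libraries. Its frankincense values were all higher in TPM, the change did not pass the count test (log2 fold change -0.03 ± 0.07 SE, edgeR adjusted p = 0.73), and its sign turned with library size or TPM scaling and without frankincense replicate 3. After treatment HOXB2 was the highest HOX gene of all, at 55.6 ± 3.99 TPM in frankincense and 48.6 ± 0.344 TPM in vehicle libraries (SD, n = 3 each).

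The HOXC genes had the smallest median change in size. HOXC9, a gene of the thoracic skeleton and motor neurons in mice, had 3.46, 4.89 and 2.89 TPM in the frankincense libraries, against 6.89, 6.77 and 7.26 TPM in the vehicle libraries. It was 1.70-fold lower (log2 fold change -0.77 ± 0.16 SE, edgeR adjusted p = 0.00087), with no overlap. Its effective length was 1144 ± 88.8 bases in frankincense and 877 ± 75.3 bases in vehicle libraries (SD, n = 3 each). HOXC10, a hindlimb and lumbar gene in mice, had 6.12, 6.08 and 5.37 TPM in the frankincense libraries, against 6.96, 7.27 and 6.90 TPM in the vehicle libraries. It was 1.31-fold lower (log2 fold change -0.39 ± 0.11 SE, edgeR adjusted p = 0.0076), and this call was lost on the TPM scale (limma, adjusted p = 0.0607).

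HOXC6 had 28.9, 25.5 and 23.7 TPM in the frankincense libraries, against 26.4, 27.02 and 27.1 TPM in the vehicle libraries. In TPM the groups overlapped, and the count-scale difference was 1.22-fold lower (log2 fold change -0.29 ± 0.08 SE, edgeR adjusted p = 0.0067). HOXC8 had 10.5, 10.2 and 8.99 TPM in the frankincense libraries, against 10.5, 9.66 and 10.4 TPM in the vehicle libraries. Here too the TPM groups overlapped, with a count-scale difference of 1.21-fold lower (log2 fold change -0.28 ± 0.09 SE, edgeR adjusted p = 0.015). HOXC4 had 10.6, 10.3 and 10.9 TPM in the frankincense libraries, against 10.1, 11.04 and 10.96 TPM in the vehicle libraries. The overlap was nearly complete, and the count-scale difference was 1.19-fold lower (log2 fold change -0.25 ± 0.09 SE, edgeR adjusted p = 0.02). HOXC5 had 0.430, 0.290 and 0.410 TPM in the frankincense libraries, against 0.530, 0.420 and 0.780 TPM in the vehicle libraries. It rests on 32.1 counts over all frankincense libraries and 58.9 over all vehicle libraries, with overlapping TPM and a count-scale difference of 1.82-fold lower (log2 fold change -0.87 ± 0.34 SE, edgeR adjusted p = 0.039). HOXC11 had 1.60, 1.39 and 1.65 TPM in the frankincense libraries, against 1.52, 1.24 and 1.03 TPM in the vehicle libraries. Its groups overlapped and the change did not pass the test (log2 fold change 0.06 ± 0.19 SE, edgeR adjusted p = 0.79). The calls of HOXC4, HOXC5, HOXC6 and HOXC8 were all lost on the TPM scale (limma, adjusted p of 0.937, 0.238, 0.672 and 0.736), and those of HOXC4 and HOXC5 also with DESeq2 (adjusted p of 0.108 and 0.193). Over all alternatives run, the call was lost in 10 of 14 for HOXC5, 8 of 15 for HOXC4, 7 of 15 for HOXC8 and 3 of 15 for HOXC6. With library size scaling the adjusted p was 0.0573 for HOXC5, 0.0858 for HOXC4 and 0.0564 for HOXC8.

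HOXD split between its posterior pair, which fell, and HOXD4 and HOXD8, which rose. HOXD10 had 5.92, 5.61 and 5.77 TPM in the frankincense libraries, against 13.6, 13.5 and 13.2 TPM in the vehicle libraries. The groups were far apart, and HOXD10 was 2.81-fold lower (log2 fold change -1.49 ± 0.09 SE, edgeR adjusted p = 2.5e-09). HOXD11, a gene of the forearm and kidney in mice, had 3.16, 3.37 and 3.74 TPM in the frankincense libraries, against 7.31, 6.29 and 5.81 TPM in the vehicle libraries. It was 2.26-fold lower, with no overlap (log2 fold change -1.18 ± 0.14 SE, edgeR adjusted p = 3.6e-06). HOXD8 had 18.6, 17.3 and 17.1 TPM in the frankincense libraries, against 10.6, 11.5 and 10.3 TPM in the vehicle libraries. All frankincense libraries were higher, and HOXD8 was 1.33-fold higher (log2 fold change 0.41 ± 0.10 SE, edgeR adjusted p = 0.0018). HOXD4, a gene of the cervical spine and hindbrain in mice, had 13.3, 13.3 and 15.1 TPM in the frankincense libraries, against 8.36, 8.77 and 9.43 TPM in the vehicle libraries. It was 1.32-fold higher, with groups apart (log2 fold change 0.40 ± 0.09 SE, edgeR adjusted p = 0.0019).

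HOXD9 had 7.30, 7.81 and 8.49 TPM in the frankincense libraries, against 8.65, 8.28 and 7.82 TPM in the vehicle libraries. In TPM the groups overlapped, and the count-scale difference of 1.24-fold lower (log2 fold change -0.31 ± 0.09 SE, edgeR adjusted p = 0.0057) was lost on the TPM scale (limma, adjusted p = 0.609). HOXD3 had 4.03, 4.39 and 3.47 TPM in the frankincense libraries, against 3.67, 3.39 and 2.42 TPM in the vehicle libraries. The groups overlapped, the change did not pass the test (log2 fold change -0.03 ± 0.17 SE, edgeR adjusted p = 0.89) and its sign turned under 8 alternatives. HOXD13 ranged from 0.11 to 0.43 TPM in frankincense and from 0.08 to 0.31 TPM in vehicle libraries and did not pass the test (log2 fold change 0.62 ± 0.58 SE, edgeR adjusted p = 0.38).

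**Figure D3:**
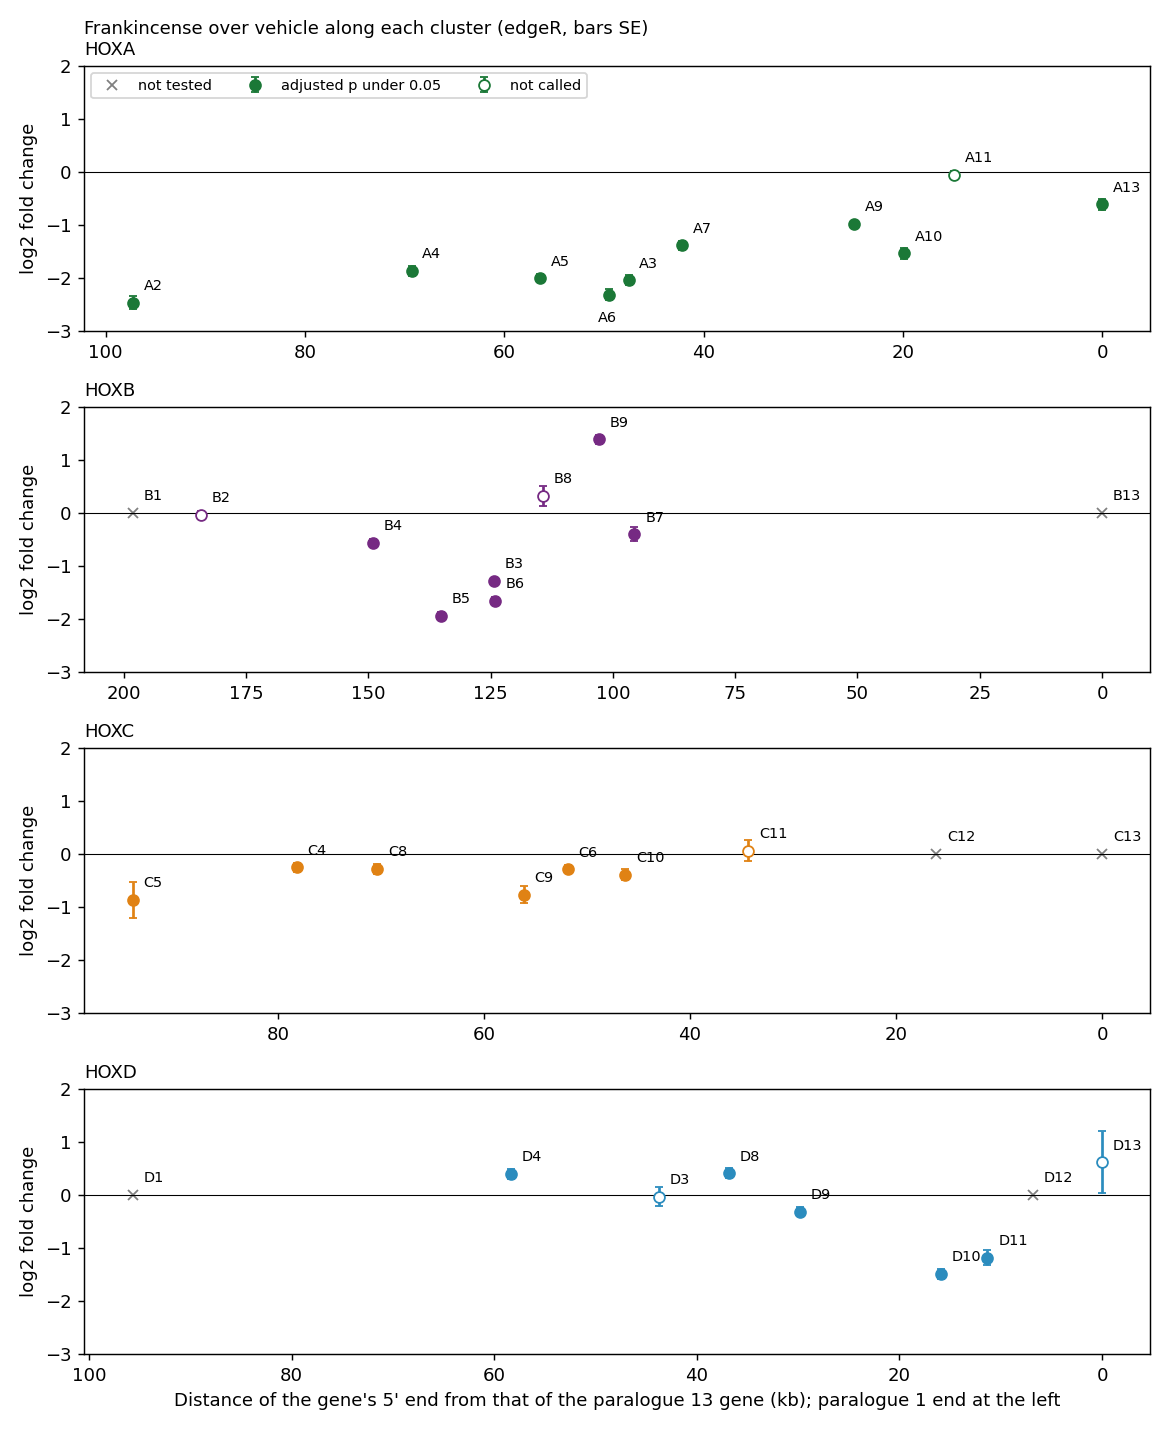
Log2 fold change of frankincense over vehicle (y axis, edgeR, bars SE) against the distance in kb of each gene's outermost annotated 5' end from that of the paralogue 13 gene (x axis), one panel per cluster, 1 gene not shown; filled points passed the test, open points did not, crosses were not tested. HOXA2 to HOXA10 lie between -0.98 and -2.46, HOXA11 at -0.05, and HOXB9 at 1.39 beside HOXB8 and HOXB7; HOXA11, HOXB2 and HOXD3 change sign with TPM scaling.

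The changes were also set against paralogue number, with which they went in part in HOXA and HOXB and little in HOXC and HOXD. In HOXA the log2 fold changes of HOXA2 to HOXA6 lay between -2.46 and -1.87, and those of HOXA7 to HOXA13 between -1.53 and -0.05. Spearman's rho between paralogue number and log2 fold change was 0.57 across the 11 HOXA genes, 0.45 across 8 HOXB genes, 0.18 across 7 HOXC genes and -0.07 across 7 HOXD genes. These are descriptions across genes of the same 6 libraries, with no test. Some annotated 5' ends are distant promoters, which places HOXA3 beside HOXA6 on the distance scale. By axis position, the summed TPM of genes 1 to 3 was 107.2 ± 5.00 in frankincense and 160.7 ± 4.45 in vehicle libraries, that of genes 4 to 8 was 189.3 ± 7.78 in frankincense and 320.1 ± 6.10 in vehicle, and that of genes 9 to 13 was 119.9 ± 0.360 in frankincense and 166.9 ± 1.47 in vehicle (SD, n = 3 each). Within the anterior class 4 of 6 tested genes fell and 0 rose, within the central class 12 of 15 fell and 2 rose, and within the posterior class 8 of 12 fell and 1 rose. Of all genes tested, 31.0% fell and 31.9% rose. The central falls include HOXB7, HOXC4, HOXC5, HOXC6 and HOXC8, with overlapping TPM and calls lost on the TPM scale. The posterior falls include HOXA13, HOXC10 and HOXD9, whose calls were lost on that scale.

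Summed over each cluster, HOXA came to 128.6 ± 3.64 TPM in frankincense and 296.7 ± 4.71 TPM in vehicle libraries, a ratio of 0.433 (SD, n = 3 each). HOXB came to 176.6 ± 8.27 TPM in frankincense and 236.2 ± 6.26 TPM in vehicle libraries, a ratio of 0.748. HOXC came to 58.1 ± 3.91 TPM in frankincense and 63.6 ± 0.843 TPM in vehicle libraries, a ratio of 0.913. HOXD came to 53.1 ± 0.796 TPM in frankincense and 51.2 ± 1.80 TPM in vehicle libraries, a ratio of 1.04 that was below 1 with FPKM, with TPM without mitochondrial genes and with scaled CPM. HOXA thus gave 30.9% ± 0.860 of HOX TPM in frankincense libraries and 45.8% ± 0.498 in vehicle libraries, and HOXB was the leading cluster after treatment at 42.4% ± 0.699, against 36.5% ± 0.570 in vehicle.

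Paralogues, the genes with the same number in different clusters, often differed in how they changed. In group 9, HOXB9 rose while HOXA9, HOXC9 and, on the count scale alone, HOXD9 fell. Over the homeobox of 180 bases (GENCODE 29 transcripts), the 42 pairs of the same paralogue group had a median homeobox identity of 81.7%, and the 172 pairs of the same cluster a median of 61.4%. The difference in log2 fold change had a median of 1.10 over the 33 paralogous pairs with both genes tested, of 0.72 over 125 pairs of the same cluster, and of 0.99 over the 370 pairs that share neither. Pairs share genes, so these medians are descriptions. The ratio of HOXB9 to HOXA9 TPM was 0.389, 0.428 and 0.353 in frankincense libraries, against 0.0724, 0.0832 and 0.0760 in vehicle libraries. The ratio of HOXD4 to HOXA4 TPM was 1.40, 1.68 and 1.61 in frankincense libraries, against 0.272, 0.323 and 0.368 in vehicle libraries. That of HOXC6 to HOXA6 was 6.52, 5.02 and 3.98 in frankincense libraries, against 1.23, 1.23 and 1.26 in vehicle libraries. In each of these the 3 frankincense libraries lay above the 3 vehicle libraries, and the ratios were chosen after their values were seen.

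Over whole paralogue groups, group 5 had the lowest ratio of sums among the groups above 1 TPM, 0.288, with 29.4 ± 1.21 TPM in frankincense and 102.0 ± 3.39 TPM in vehicle libraries. All of its 3 genes fell, although the call of HOXC5 rests on few counts and was lost on the TPM scale. Group 3 came to 46.5 ± 2.31 TPM in frankincense and 98.3 ± 4.18 TPM in vehicle libraries. Group 10 came to 25.3 ± 2.13 TPM in frankincense and 51.8 ± 1.90 TPM in vehicle libraries, and all of its 3 genes fell, HOXC10 with a call lost on the TPM scale. Group 2 was level in sum, 57.6 ± 4.11 TPM in frankincense and 58.1 ± 0.327 TPM in vehicle libraries, with HOXB2 far more abundant than HOXA2. Group 8 came to 31.6 ± 2.38 TPM in frankincense and 23.8 ± 0.736 TPM in vehicle libraries, with HOXD8 rising, HOXC8 falling on the count scale and HOXB8 not passing the test (SD, n = 3 each).

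**Figure D4:**
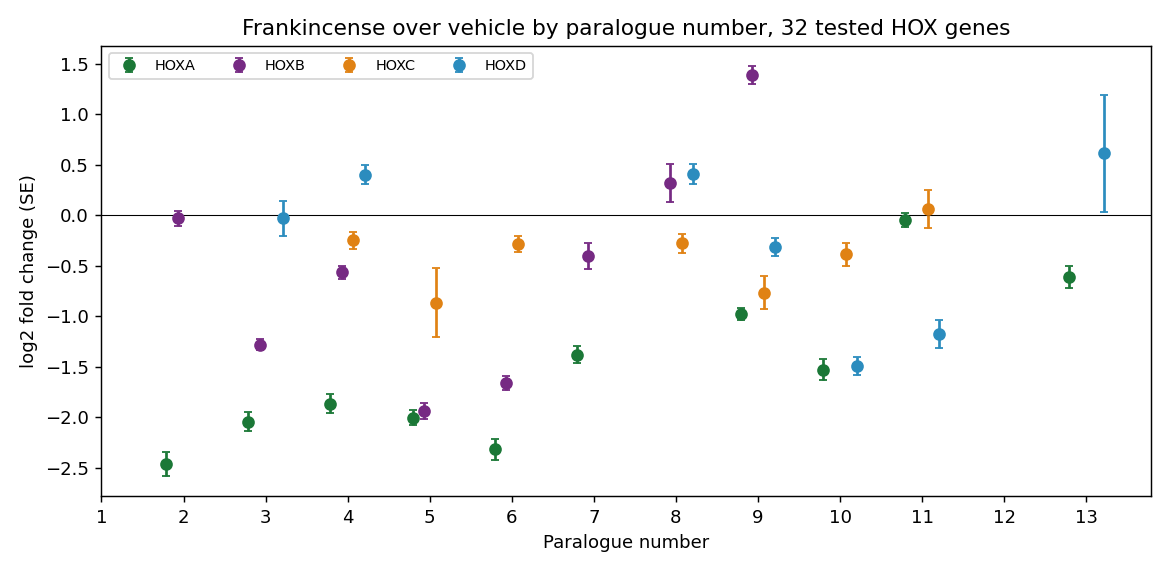
Log2 fold change of frankincense over vehicle (y axis, edgeR, bars SE) by paralogue number (x axis) for 32 of the 33 tested HOX genes, coloured by cluster. HOXA genes have the lowest value in groups 2 to 7, 9, 10 and 13, in groups 5 and 10 by less than the SE, and group 9 runs from -0.98 for HOXA9 to 1.39 for HOXB9; HOXA11, HOXB2 and HOXD3 change sign with TPM scaling.

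RNA read from transcripts shared by several genes limits some of these values, because RSEM divides such reads by estimate. In GENCODE 29, 58.9% of the 50-base windows of HOXC5 also occur in a noncoding entry that bears the same symbol and averaged 1.76 TPM in frankincense and 3.35 TPM in vehicle libraries. The share was 28.3% for HOXA4, 19.8% for HOXD11, 16.3% for HOXC4, 15.2% for HOXD10, 14.6% for HOXB6, 13.1% for HOXC6 and 12.8% for HOXA9. HOXD10 and HOXD11 shared these windows with each other, HOXC4 and HOXC6 mostly with each other, and HOXB6 mostly with HOXB3. Values of these genes are uncertain, by an amount that the shares of windows do not give. No window was shared for HOXA2, HOXA5, HOXA7, HOXA11, HOXB2, HOXB9, HOXD4 and HOXD8. Windows were compared in the sense direction only, so overlap with antisense RNAs is not covered and may still affect these genes.

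Noncoding RNAs of the clusters are many and partly antisense, and the strand setting of the counting is not given in the sources used here, so reads of a noncoding RNA and of an overlapping HOX gene may be mixed. Of 18 such RNAs, 13 were tested, 7 fell, 0 rose and 6 did not pass. The 53.8% called was below the 62.9% of all genes, and the 53.8% that fell stood against 31.0%. HOTAIRM1, a myeloid RNA from the anterior end of HOXA, had 39.6, 36.7 and 41.5 TPM in the frankincense libraries, against 79.5, 79.7 and 76.5 TPM in the vehicle libraries. It was 2.40-fold lower (log2 fold change -1.26 ± 0.07 SE, edgeR adjusted p = 1e-09). HOXA-AS2 was 4.63-fold lower (log2 fold change -2.21 ± 0.08 SE, edgeR adjusted p = 2.5e-11) and averaged 12.5 ± 1.47 TPM in frankincense libraries and 49.1 ± 1.64 TPM in vehicle libraries (SD, n = 3 each). HOXA-AS3 was 5.26-fold lower (log2 fold change -2.40 ± 0.19 SE, edgeR adjusted p = 2.3e-07) and averaged 1.32 ± 0.525 TPM in frankincense libraries and 5.51 ± 0.397 TPM in vehicle libraries (SD, n = 3 each). At the posterior end, HOTTIP, which in human fibroblasts recruits an activating complex to the distal HOXA genes, was 4.43-fold lower (log2 fold change -2.15 ± 0.34 SE, edgeR adjusted p = 7e-05) at a low level, with 0.20, 0.19 and 0.31 TPM in frankincense libraries, against 0.59, 0.84 and 0.48 TPM in vehicle libraries.

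HOTAIR, the RNA from HOXC that binds Polycomb proteins, had 3.66, 5.35 and 3.90 TPM in the frankincense libraries, against 9.60, 10.4 and 7.97 TPM in the vehicle libraries. No frankincense library reached the vehicle range, and HOTAIR was 2.33-fold lower (log2 fold change -1.22 ± 0.15 SE, edgeR adjusted p = 1.4e-05). HOXC-AS1 (log2 fold change -1.36) and HOXB-AS3 (-0.70) also fell, at adjusted p of 0.0083 and 0.014. HOXA10-AS, HOXA11-AS, HOXB-AS1, HOXD-AS2, HAGLR and HAGLROS did not pass the test, with log2 fold changes from -0.23 to 0.34.

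Genes beside the clusters were counted to set the HOX changes in place. Within 500 kb of the outermost HOX genes lie 46 other protein-coding genes, of which 27 were tested, 7 rose, 13 fell and 7 did not pass, with a median log2 fold change of -0.13. The 74.1% called, 25.9% higher and 48.1% lower, stood against 62.9%, 31.9% and 31.0% of all genes. SKAP2, the neighbour beyond the anterior end of HOXA, had 16.1, 18.5 and 22.1 TPM in the frankincense libraries, against 15.5, 15.2 and 16.2 TPM in the vehicle libraries. It did not pass the test (log2 fold change 0.00 ± 0.07 SE, edgeR adjusted p = 0.98), beside HOXA2, which fell. HIBADH, 325.3 kb beyond HOXA13, was 1.15-fold lower (log2 fold change -0.20 ± 0.06 SE, edgeR adjusted p = 0.0062). MTX2, a mitochondrial membrane gene beyond the HOXD1 end, was 1.47-fold higher (log2 fold change 0.55 ± 0.08 SE, edgeR adjusted p = 4.6e-05), and LNPK beyond HOXD13 was 1.24-fold lower (log2 fold change -0.31 ± 0.07 SE, edgeR adjusted p = 0.0012). HIBADH averaged 89.2 ± 5.05 TPM in frankincense libraries and 87.5 ± 1.26 TPM in vehicle libraries (SD, n = 3 each), and LNPK averaged 13.8 ± 1.40 TPM in frankincense libraries and 13.7 ± 0.776 TPM in vehicle libraries (SD, n = 3 each), so the direction of both depends on the scaling. Around HOXB the calls with the smallest adjusted p were NFE2L1, a stress-response transcription factor (1.82-fold higher), and ATP5MC1, an ATP synthase subunit (1.50-fold lower). Around HOXC they were HNRNPA1, a splicing factor (1.67-fold lower), and CALCOCO1, an autophagy receptor of the endoplasmic reticulum (1.64-fold lower).

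HOX proteins bind DNA with TALE cofactors, and of 9 PBX, MEIS and PKNOX genes 8 were tested, 6 fell and 0 rose, so that 75% fell against 31.0% of all genes. MEIS2 had 44.8, 43.2 and 49.1 TPM in the frankincense libraries, against 88.9, 89.2 and 89.8 TPM in the vehicle libraries. It was 2.32-fold lower (log2 fold change -1.22 ± 0.05 SE, edgeR adjusted p = 4.2e-11), and MEIS1 was 2.27-fold lower (log2 fold change -1.18 ± 0.06 SE, edgeR adjusted p = 7.9e-10). PBX2 and PBX3 fell too, with log2 fold changes of -0.39 and -0.97 (edgeR adjusted p of 5.9e-06 and 2.4e-09). The list's median log2 fold change was -0.66 on counts, beside -0.0016 over all genes.

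Retinoic acid, a vitamin A derivative that switches on anterior HOX genes through nuclear receptors in embryos, is made, carried, sensed or degraded by products of a second list of 18 genes, in which the CYP26 enzymes degrade it and DHRS3 lowers the supply of its precursor. Of these, 13 were tested, 11 fell, 0 rose and 2 did not pass, with a median log2 fold change of -0.59. The 84.6% that fell, 3 of them with a direction that depends on the scaling, stood against 31.0% of all genes. DHRS3, a retinaldehyde reductase, had 25.97, 25.1 and 26.95 TPM in the frankincense libraries, against 72.5, 66.6 and 72.8 TPM in the vehicle libraries. It was 3.26-fold lower (log2 fold change -1.71 ± 0.06 SE, edgeR adjusted p = 7.2e-12). CRABP2, which carries retinoic acid to its receptor, was 5.06-fold lower (log2 fold change -2.34 ± 0.11 SE, edgeR adjusted p = 6e-10), and the receptor gene RARB was 2.77-fold lower (log2 fold change -1.47 ± 0.11 SE, edgeR adjusted p = 3.7e-08). ALDH1A1, a retinaldehyde dehydrogenase, was 5.10-fold lower (log2 fold change -2.35 ± 0.23 SE, edgeR adjusted p = 2e-05), while ALDH1A3, the most abundant such enzyme here, did not pass the test (log2 fold change 0.08 ± 0.06 SE, edgeR adjusted p = 0.25) and averaged 449 ± 5.20 TPM in frankincense libraries and 361 ± 23.5 TPM in vehicle libraries (SD, n = 3 each). Retinoic acid itself was not measured. Falls of RARA, RXRA and ALDH1A2 on counts (log2 fold changes -0.20, -0.49 and -0.28) had higher mean TPM in frankincense than in vehicle, so their direction depends on the scaling.

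Chromatin regulators that keep HOX genes silent or active had smaller median changes than the HOX genes. Of 11 genes of Polycomb repressive complex 2, which places the silencing mark on histone H3, 1 rose, 5 fell and 5 did not pass, with a median log2 fold change of -0.09. JARID2 was 1.295-fold higher (log2 fold change 0.37 ± 0.08 SE, edgeR adjusted p = 0.0014), PHF19 1.55-fold lower (log2 fold change -0.64 ± 0.05 SE, edgeR adjusted p = 3.7e-08), and EZH2, the catalytic subunit, 1.58-fold lower (log2 fold change -0.66 ± 0.05 SE, edgeR adjusted p = 6.1e-08). Of 19 genes of Polycomb repressive complex 1, 7 rose, 4 fell and 8 did not pass, with RNF2, a ubiquitin ligase, 1.50-fold higher (log2 fold change 0.58 ± 0.06 SE, edgeR adjusted p = 1.6e-06) and PHC2 1.67-fold lower (log2 fold change -0.74 ± 0.05 SE, edgeR adjusted p = 2.6e-08). Of 18 genes of the MLL, UTX and DOT1L activators, 2 rose, 10 fell and 6 did not pass, with a median of -0.24. The share called was 54.5% for the first of these complexes, 57.9% for the second and 66.7% for the activators, near the 62.9% of all genes. DOT1L, a histone methyltransferase, was 1.61-fold lower (log2 fold change -0.69 ± 0.06 SE, edgeR adjusted p = 2.5e-07), and AFF4, an elongation factor, was 1.27-fold higher (log2 fold change 0.34 ± 0.06 SE, edgeR adjusted p = 0.00019). Of 11 CTCF and cohesin genes, which fold the clusters into domains, 2 rose, 2 fell and 7 did not pass, so that 36.4% were called. RAD21 was 1.61-fold lower (log2 fold change -0.69 ± 0.06 SE, edgeR adjusted p = 1.2e-07), WAPL 1.17-fold higher (log2 fold change 0.23 ± 0.06 SE, edgeR adjusted p = 0.0026), and CTCF itself did not pass (log2 fold change 0.12 ± 0.06 SE, edgeR adjusted p = 0.1). The medians of the PRC2, CTCF and cohesin, and MLL lists were above 0 as TPM ratios (0.10, 0.13 and 0.15), so no direction is given for these lists.

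Of 9 further reported HOX regulators, 6 were tested and all 6 fell on counts, where 31.0% of all genes did, led by NR2F1, an orphan nuclear receptor, at 4.29-fold lower (log2 fold change -2.10 ± 0.08 SE, edgeR adjusted p = 2.6e-11). YY1, among these 6, had higher TPM in frankincense (68.0 ± 7.01 TPM) than in vehicle (53.5 ± 1.49 TPM; SD, n = 3 each). The EVX genes beside the clusters and the ParaHOX genes, relatives of the HOX genes that include CDX, were too low to test in 8 of 8 cases. Of 8 genes reported as HOXA10 or HOXA11 targets in endometrium, 4 were tested, 3 rose and 1 fell, where 31.9% of all genes rose and 31.0% fell. FKBP4, a progesterone receptor co-chaperone, had 125, 129.97 and 137 TPM in the frankincense libraries, against 58.2, 55.8 and 63.3 TPM in the vehicle libraries and was 1.82-fold higher (log2 fold change 0.86 ± 0.05 SE, edgeR adjusted p = 3.7e-09). ITGB3, the integrin subunit of receptive endometrium, was 1.48-fold higher (log2 fold change 0.57 ± 0.09 SE, edgeR adjusted p = 9e-05), and DKK1, a WNT inhibitor, was 1.41-fold higher (log2 fold change 0.49 ± 0.06 SE, edgeR adjusted p = 2.5e-06). FOXO1 was 1.52-fold lower (log2 fold change -0.60 ± 0.13 SE, edgeR adjusted p = 0.0013), and the decidual genes IGFBP1, PRL and LEFTY2 with EMX2 were too low to test.

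**Figure D5:**
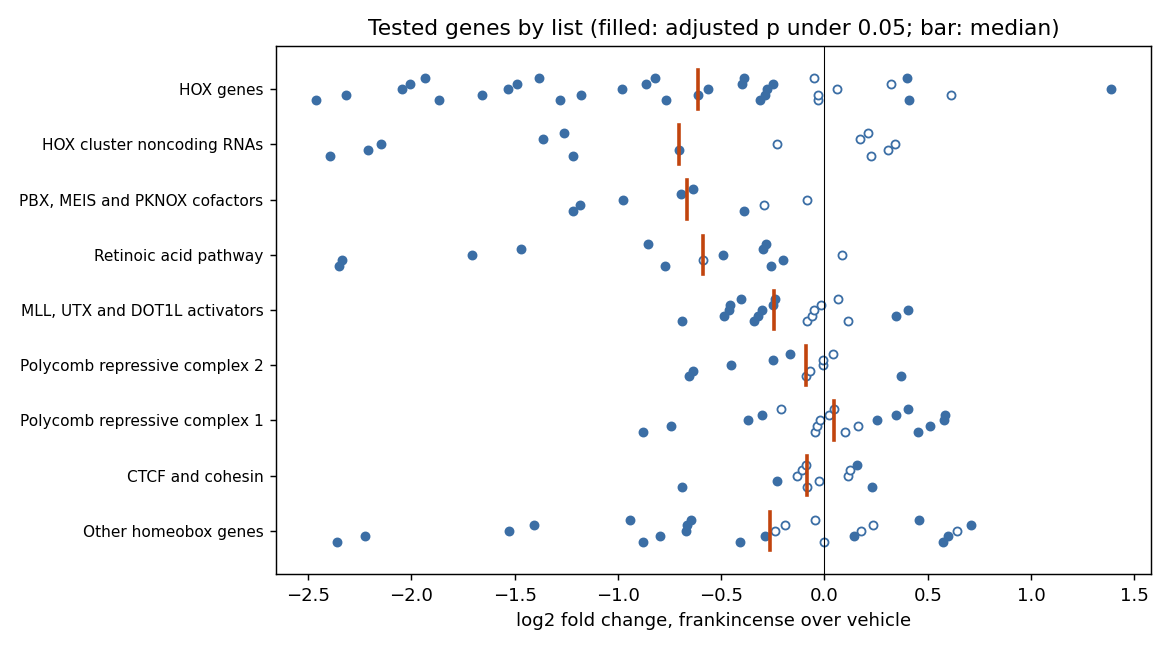
Log2 fold change of frankincense over vehicle (x axis, edgeR) of the tested genes of each list (rows), with filled points past an adjusted p of 0.05, open points not, and a bar at the median. The HOX genes, the cluster noncoding RNAs, the TALE cofactors and the retinoic acid genes have medians between -0.70 and -0.59, and the Polycomb and CTCF and cohesin lists have medians between -0.09 and 0.05.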

How the data were processed

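Total RNA of 12Z cells was sequenced in 6 libraries with a TruSeq RNA kit, per the labels' protocols. STAR, RSEM 1.3.1 and GRCh38 are named in the submitters' processing notes, with the annotation, the STAR version and the strand setting not given there. The authors deposited 1 table per library with RSEM's expected counts (estimates that can be fractional), TPM, FPKM and effective lengths, as named in the headers. After rounding, the expected counts entered edgeR (version 4.0.16, R version 4.3.3; TMM factors, filterByExpr, robust quasi-likelihood test, two-sided, Benjamini-Hochberg over 16719 genes, adjusted p under 0.05). The biological coefficient of variation was 6.42%. The SE given with an edgeR change was derived from the test, as the absolute log2 fold change divided by the square root of its F statistic. Alternatives were other scalings and count filters, DESeq2 1.42.0, limma 3.58.1 on log2(TPM + 1) and log2(TPM + 0.1), a replicate block, and leaving out each library. The fit was first tested on simulated counts, with far fewer changed genes than here and no shift in the mitochondrial share. That test therefore does not cover the dependence on scaling. TPM were set beside each other for levels, and FPKM served as an alternative.

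Gene names came from the gene name table (60419 of 60616 identifiers matched) and positions from GENCODE 29. No pair of libraries agreed within sampling noise. The HOX genes and lists were chosen with earlier results of these data known. HOX genes at 1 TPM or more, or called, are given by library, and of each list the called gene with the smallest adjusted p in each direction is named. The markers CD14, EPCAM, KRT7 and CDH2, and EZH2, CTCF, MEIS1, PBX2, PBX3, SKAP2, the further retinoic acid genes, the further HOXA10 and HOXA11 targets and YY1 were added after their values were seen. Some genes and sequences are not reported here. Promoter windows are from RefSeq (GRCh38.p14), homeoboxes from GENCODE 29 transcripts.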

Additional observations from a re-analysis of the deposited data

How the results depend on the processing

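In place of 3, 5 HOX genes rose with limma on log2(TPM + 1) and 5 on log2(TPM + 0.1), HOXA11 and HOXB2 being added, and in place of 24, 16 fell in both. Leaving out each library in turn gave 3 to 4 HOX genes that rose, 21 to 24 that fell and 9377 to 11031 called over all genes, beside 10509 with all libraries. DESeq2 called 3 higher and 22 lower. Of all calls, 50.7% were higher on counts, 58.7% with library size alone and 74.2% on the TPM scale. Of 489 alternative values of single HOX genes, 431 kept direction and side of the threshold, 39 lost the call, 1 gained one in the same direction (HOXB8) and 18 turned sign, of which 4 passed the test as higher (HOXA11 and HOXB2, each on both TPM scales), the cause of which was not tested. The turned values, all of genes not called on the counts, were for HOXA11 0.0259 with library size and 0.21, 0.22 and 0.0368 in the TPM fits (the last without mitochondrial genes). For HOXB2 they were 0.0426 with library size and 0.19, 0.19 and 0.00536 in the TPM fits, and for HOXD3 0.0447, 0.26, 0.33 and 0.13 in the same order. Leaving out 1 library gave -0.12 to 0.0634 for HOXB2, -0.0592 to 0.21 for HOXC11 and -0.20 to 0.10 for HOXD3. The log2 ratio of the HOXD sum turned to -0.11 with FPKM, -0.13 without mitochondrial genes and -0.25 with scaled CPM. Same-numbered libraries correlated at 0.05, 0.10 and 0.04 in their deviations, and differently numbered ones at -0.07 to 0.021. With 3 libraries per group such small values cannot decide whether the numbers pair the samples. The replicate block gave 3 higher, 24 lower and 10591 called over all genes. The 6 HOX genes under 0.1 TPM in vehicle had too few counts to be tested at this depth.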

Other observations

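Other homeobox genes, transcription factors outside the clusters, were followed as a further group of 64. Of these, 24 were tested, 12 fell, 5 rose and 7 did not pass, so that 70.8% were called against 62.9% of all genes, and their median log2 fold change of -0.26 on counts was 0.01 as a TPM ratio. HLX, a gene of gut and liver mesenchyme in mice, had 12.7, 10.9 and 14.6 TPM in the frankincense libraries, against 30.6, 30.6 and 23.5 TPM in the vehicle libraries, and was 2.65-fold lower (log2 fold change -1.41 ± 0.08 SE, edgeR adjusted p = 1.5e-09). TGIF1, a repressor of TGF-beta and retinoid responses, had 157, 166 and 159.37 TPM in the frankincense libraries, against 82.1, 84.4 and 91.9 TPM in the vehicle libraries, and was 1.49-fold higher (log2 fold change 0.57 ± 0.06 SE, edgeR adjusted p = 1e-06).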
